A study of Homo sapiens with 12 samples.

Results

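The genes described here encode enzymes that make or interconvert asparagine, aspartate, proline, glutamate, glutamine, alanine, arginine precursors and branched-chain amino acids: ASNS, GPT2, PYCR1, ALDH18A1, ASS1, GOT1, GOT2, GLUL and BCAT1. These 9 genes were taken by symbol from 2 deposited expression tables, which list 30703 symbols for KYSE150 and 30106 for KYSE410, 26115 of them shared. KYSE150 and KYSE410 are established human lines of esophageal squamous carcinoma, both labelled wild type, and each was kept in 21% oxygen (normoxia) or 0.5% oxygen (hypoxia), with 3 mRNA libraries per line and oxygen level and 12 in all. The time label is 48 h for hypoxic and 0 for normoxic libraries, whereas the series text gives 48 h for both oxygen levels, so the length of the normoxic culture is not settled. No label says that libraries of a group came from separate cultures, and the p-values therefore measure only the spread between these libraries, which may be technical.

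The amino group of glutamate and the amide group of glutamine feed the nonessential amino acids. ASNS moves the glutamine amide onto aspartate to make asparagine, the transaminases GOT1, GOT2 and GPT2 pass the glutamate amino group to oxaloacetate or pyruvate, and ALDH18A1 followed by PYCR1 reduces glutamate to proline. GLUL makes glutamine from glutamate and ammonia. Several of these genes are textbook targets of ATF4, a transcription factor whose translation rises when eIF2 is phosphorylated, and ATF4 binds with C/EBP partners at composite sites such as the one in the ASNS promoter.

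Because the ASNS promoter is the textbook example of such a composite site, the 250 bases before the annotated starts of the members were searched for it in the RefSeq promoter table (GRCh38.p14). The table held windows for 7 of the 9 members, all except GPT2 and PYCR1. The core TGATGNAA, read on both strands, was present in 3.14% of all 35116 windows of this length, or in at least 1 window of 3.89% of 27305 genes, and in a window of 3 members, ASNS, GOT1 and BCAT1. The sites are shown with 30 bases each, 5′ to 3′ on the strand of the gene, with the matched core in capitals. In GOT1 the match is on the opposite strand, so its reverse complement is printed.

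ASNS: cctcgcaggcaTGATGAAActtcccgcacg

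GOT1: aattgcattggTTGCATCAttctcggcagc

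BCAT1: tgtcttcctgcTGATGCAAtccgctaggtc

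ASNS had 2 windows, GOT1 1 and BCAT1 5, and the core was in 1 window of each gene. The ASNS core began 68 bases before the RefSeq start of its window (chr7:97872458-97872487, minus strand). The GOT1 core began 198 bases before its start (chr10:99430804-99430833, minus strand) and the BCAT1 core 48 bases before its start (chr12:24949131-24949160, minus strand). Each of these 3 stretches overlapped at least 1 exon of the GENCODE 29 annotation, whereas the stretches of ALDH18A1 and ASS1 below overlapped 0. By position the 3 stretches lie inside the GENCODE 29 spans of ASNS, GOT1 and BCAT1, and those of ALDH18A1 and ASS1 outside theirs. For these 3 genes the RefSeq start of the window is thus not the outermost GENCODE start. Exons were counted on either strand and for any gene, so whether the stretches are transcribed as part of these genes was not tested. The E-box CACGTG, the core bound by basic helix-loop-helix factors such as MYC, was in 6.34% of windows (7.73% of genes) and in those of 2 members, ALDH18A1 and ASS1.

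ALDH18A1: ggctggcccgcCACGTGgagcgctggcttg

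ASS1: cgcgtccccgcCACGTGtccccggtcaccg

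These lie 136 bases before the ALDH18A1 start (chr10:95656829-95656858, minus strand) and 71 bases before 1 of the 2 ASS1 starts (chr9:130444879-130444908, plus strand). The cores read by hypoxia-inducible factors are short and common: ACGTG, which CACGTG contains, was in 18.5% of windows (21.7% of genes) and in those of ALDH18A1, ASS1 and GOT2, while GCGTG was in 32.2% of windows (36.2% of genes) and in those of ASNS, GOT1, GOT2, GLUL and BCAT1. A match is a stretch of letters in the window and was not tested for binding.

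Values are FPKM (fragments per kilobase of transcript, scaled for library size), a unit inferred from the tables, whose columns summed to between 351501 and 425094 with 22787 to 24667 genes above 0. In KYSE410 the sums lay apart by oxygen, 351501 to 356994 in normoxia and 415926 to 425094 in hypoxia, while in KYSE150 they overlapped. The part of this gap in the KYSE410 changes was not tested. Read depth is unknown, and no counting interval can be given. KYSE150 normoxia replicate 2 stood apart: the SD of its log2 difference from the other libraries of its group was 0.339 and 0.369, while the other 10 same-group pairs had 0.153 to 0.197. The sample-sheet numbers in the labels run from 50 to 55 in KYSE150, but are 38 to 40 in KYSE410 normoxia and 56 to 58 in KYSE410 hypoxia, so in KYSE410 oxygen and library set cannot be told apart. The summed level of CA9, NDRG1 and BNIP3, known low-oxygen genes, was 112 to 123 FPKM in KYSE150 normoxia and 1402 to 1456 in hypoxia, and 24.5 to 30.1 against 1239 to 1350 in KYSE410. Of 10 epithelial markers, 8 had a mean above 1 FPKM in KYSE410 but 3 in KYSE150 (KRT8, KRT18 and EPCAM), where KRT5, KRT14, KRT6A, TP63 and CDH1 were at or near 0. Of 4 leukocyte markers, CD68 alone exceeded 1 FPKM, with means of 16.3 and 28.4 FPKM in KYSE150 and 31.5 and 83.4 in KYSE410 in normoxia and hypoxia, and PTPRC had means of at most 0.0162 FPKM. Fibroblast markers summed to at most 8.18 FPKM and endothelial markers to at most 0.143. The part of the CD68 increase in the results was not tested.

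Most of the enzymes fell in hypoxia in both lines, ASNS by the largest amount in KYSE150 and GPT2 in KYSE410, and GLUL rose. BCAT1 was close to 0 in all libraries and below the minimum mean of 1 FPKM, so that 8 of the 9 members were tested. In KYSE150, 5 of the 8 were lower at an adjusted p under 0.05 (limma, Benjamini-Hochberg over all genes tested), where 38.8% of all 12692 genes tested were lower, and 1 was higher, where 23.5% of all genes were higher. In KYSE410, 6 of the 8 were lower, against 51.9% of 12054 genes, and 1 was higher, against 31.2%. The 3 hypoxic values lay wholly below the 3 normoxic ones for 6 members in each line, where this was so for 42.6% of all genes in KYSE150 and 52.7% in KYSE410. Groups lay apart with hypoxia higher for 1 member in each line, against 27% and 31.9% of all genes. The median log2 change of the 8 was -1.06 in KYSE150 and -0.84 in KYSE410, beside -0.13 and -0.21 over all genes tested. Over both directions 83.1% of all genes tested in KYSE410 were called, so the number of members called there is near the background, and in KYSE150 this share was 62.3%. After median-of-ratios scaling, which brought the median of all genes to 0.00 in both lines, 5 members were lower and 1 higher in KYSE150, and 4 lower and 2 higher in KYSE410. Under that scaling 3815 of 12692 genes were lower and 3905 higher in KYSE150, and 4998 and 5010 of 12054 in KYSE410. The number of members lower in KYSE410 is thus near the background.

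**Figure D1:**
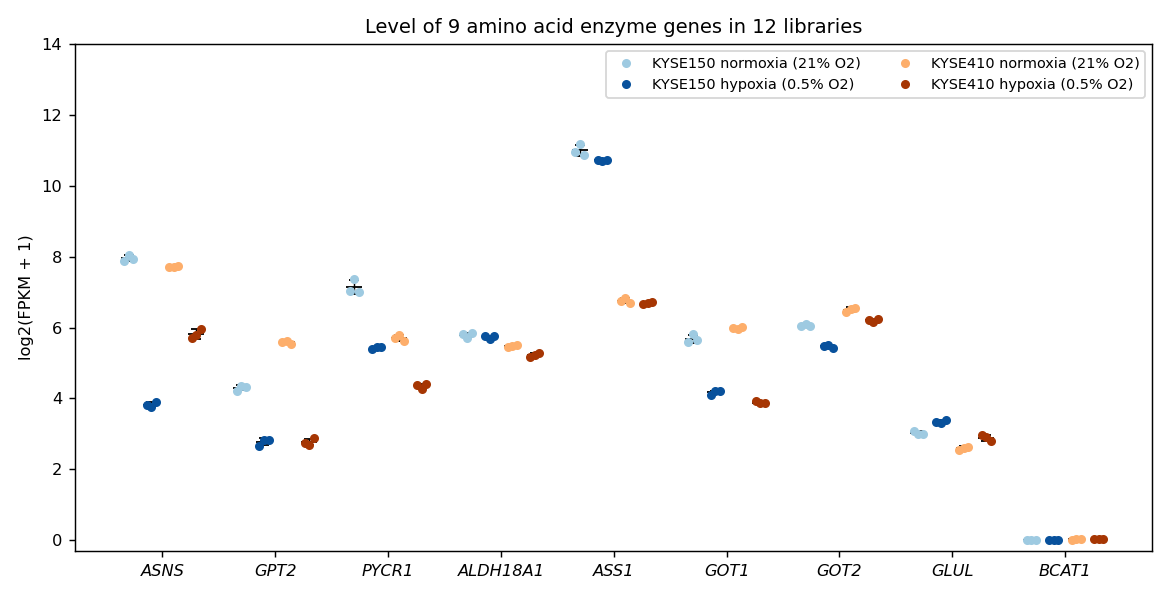
Level of each gene in every library as log2(FPKM + 1). Points are libraries, horizontal marks are means and bars are SD over 3 libraries of a group. ASS1 in KYSE150 is the highest and BCAT1 the lowest, and the hypoxic points of ASNS, GPT2, PYCR1, GOT1 and GOT2 lie below the normoxic ones in both lines.

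**Figure D2:**
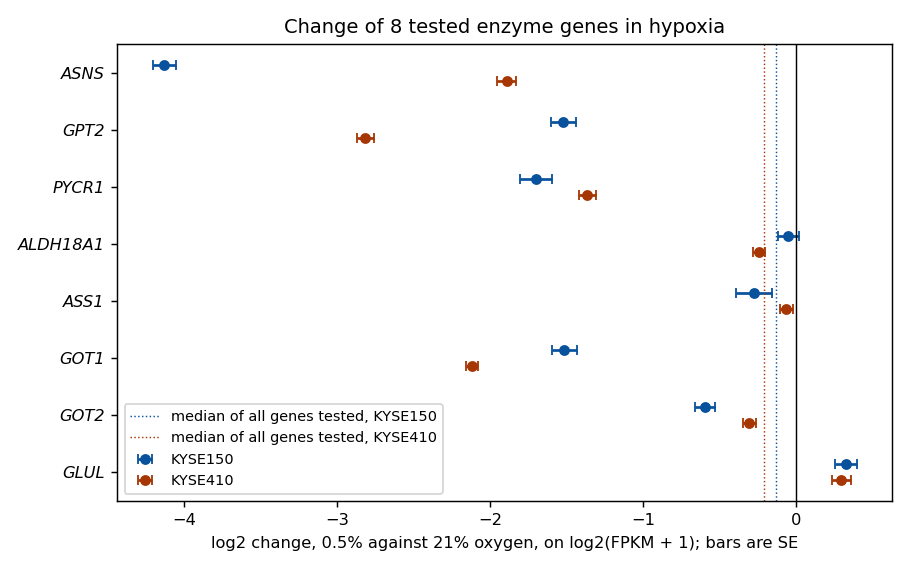
Log2 change in 0.5% against 21% oxygen for the 8 tested genes, with SE, on the log2(FPKM + 1) scale. Dotted lines mark the median of all genes tested in each line (-0.13 and -0.21). ASNS changed most in KYSE150 and GPT2 in KYSE410, and only GLUL lies above 0.

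ASNS (chr7:97852118-97872542, minus strand) encodes asparagine synthetase, which makes asparagine from aspartate and glutamine. In KYSE150 it measured 235, 262 and 244 FPKM in normoxia, against 13.1, 12.5 and 13.96 FPKM in hypoxia. In KYSE410 the normoxic values were 207, 207 and 214 FPKM and the hypoxic values 51.5, 53.98 and 61.7. The groups were far apart in both lines, and from similar normoxic levels the hypoxic libraries of KYSE150 came to lie below those of KYSE410. The mean fell 18.8-fold in KYSE150, to 5.33% of normoxia, a log2 change of -4.13 ± 0.08 (SE; limma, adjusted p = 1.372e-07), and 3.75-fold in KYSE410, a change of -1.89 ± 0.06 (adjusted p = 2.781e-08). Among all genes tested this was the fourth largest fall in KYSE150 (place 4 of 12692) and place 240 of 12054 in KYSE410. ASNSD1, which encodes a protein with an asparagine synthetase domain, fell by 0.88 and 0.84 on the log2 scale (adjusted p = 7.604e-05 and 1.906e-07). In a list of 9 aspartate and asparagine genes, which includes ASNS, GOT1 and GOT2, 6 were tested in KYSE150 and 6 were lower. In KYSE410, 5 were tested, 4 were lower and 0 higher. Of all genes tested, 38.8% were lower in KYSE150 and 51.9% in KYSE410. The list medians were -0.74 and -0.84. ASNS overlaps 2 other annotated genes, whose reads cannot be told apart from its own without the strand setting of the counting, which is not given in the sources used here.

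GOT1 (chr10:99396870-99431569, minus strand) and GOT2 (chr16:58707131-58734357, minus strand) encode the cytosolic and the mitochondrial aspartate aminotransferase, which work as a pair in the malate-aspartate shuttle. GOT1 had 47.3, 55.4 and 49.4 FPKM in KYSE150 normoxia, against 16.3, 17.4 and 17.4 in hypoxia. In KYSE410 it had 63.0, 61.6 and 64.4 FPKM in normoxia, against 14.1, 13.5 and 13.5 in hypoxia. All hypoxic libraries lay below all normoxic ones, with log2 changes of -1.52 ± 0.08 (limma, adjusted p = 4.661e-06) and -2.12 ± 0.04 (adjusted p = 2.318e-09). GOT2 had 65.0, 68.2 and 65.6 FPKM in KYSE150 normoxia against 43.5, 44.7 and 42.0 in hypoxia, and 86.1, 90.8 and 93.5 against 73.0, 70.1 and 74.8 in KYSE410. The mitochondrial enzyme thus fell less than the cytosolic one, by 0.60 ± 0.07 in KYSE150 (adjusted p = 1.385e-04) and by 0.31 ± 0.04 in KYSE410 (adjusted p = 1.309e-04). The KYSE410 call for GOT2 was lost after median-of-ratios scaling, where the change was -0.06 (adjusted p = 0.216). Both genes overlap 1 other annotated gene each, with the same limit.

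Other shuttle genes split between the lines. Of the 7 shuttle genes, GOT1 and GOT2 included, 5 were lower and 0 higher in KYSE150, while 4 were lower and 3 higher in KYSE410, with list medians of -0.60 and -0.19, the latter 0.05 by median of ratios. Over all genes tested, 38.8% were lower and 23.5% higher in KYSE150, and 51.9% and 31.2% in KYSE410. The number of shuttle genes lower in KYSE410 is thus near the background. SLC25A13, a mitochondrial aspartate-glutamate carrier, fell from 12.4 ± 0.489 to 5.33 ± 0.312 FPKM (SD, n = 3) in KYSE150 and from 12.03 ± 1.05 to 4.24 ± 0.227 in KYSE410, log2 changes of -1.08 and -1.31. MDH2, the mitochondrial malate dehydrogenase, fell by 0.62 in KYSE150 but rose by 0.21 in KYSE410 (limma, adjusted p = 1.431e-04), a direction that turned under a common sum (-0.03, adjusted p = 0.354) and quantile normalization (-0.15, adjusted p = 0.0012). Also higher in KYSE410, and named after their values were seen, were MDH1 (0.49, limma, adjusted p = 1.157e-06) and SLC25A12 (0.36, adjusted p = 0.0027). MDH1 went from 87.6 ± 2.19 to 123 ± 1.51 FPKM there. In KYSE150 they changed by -0.04 and -0.20 and did not pass. By median of ratios 3 shuttle genes were higher in KYSE410, and under a common sum 1.

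ALDH18A1 (chr10:95605929-95656706, minus strand) encodes the bifunctional enzyme that starts proline synthesis from glutamate, and PYCR1 (chr17:81932384-81942412, minus strand) the mitochondrial reductase that finishes it. PYCR1 measured 131, 164 and 127 FPKM in KYSE150 normoxia, against 41.4, 42.6 and 42.5 in hypoxia. In KYSE410 it measured 51.6, 54.4 and 48.6 FPKM in normoxia, against 19.8, 18.2 and 20.1 in hypoxia. Hypoxic libraries were lower throughout, and the highest normoxic value was that of KYSE150 replicate 2. The log2 changes were -1.70 ± 0.10 (limma, adjusted p = 8.730e-06) and -1.37 ± 0.05 (adjusted p = 7.588e-08). ALDH18A1 had 55.04, 51.7 and 56.2 FPKM in KYSE150 normoxia, against 53.4, 50.6 and 52.8 in hypoxia, groups that overlapped, and its log2 change of -0.05 ± 0.07 did not pass (adjusted p = 0.511). In KYSE410 it had 42.5, 43.4 and 44.4 FPKM in normoxia, against 35.3, 36.3 and 37.8 in hypoxia, groups that lay apart. That fall of 0.25 ± 0.04 (adjusted p = 3.226e-04) is close to the median of all genes, and after median-of-ratios scaling it was gone (adjusted p = 0.993). The enzyme that starts the pathway and the one that ends it thus differed in size of change. PYCR1 overlaps 3 other annotated genes, again with that limit.

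PYCR3, the cytosolic reductase, fell too, with log2 changes of -0.99 and -0.98 (limma, adjusted p = 1.105e-04 and 2.841e-05) from low levels of 4.85 ± 0.686 and 2.26 ± 0.289 FPKM. At such levels the added 1 FPKM shrinks the change: the means fell 2.52-fold in KYSE150 and 3.44-fold in KYSE410, and with a pseudocount of 0.1 the changes were -1.28 and -1.66. Among genes that break proline down or lead to it from ornithine, PRODH, proline dehydrogenase, rose by 0.45 in KYSE150 (adjusted p = 0.0095), from 1.44 ± 0.0342 to 2.35 ± 0.455 FPKM, a call lost once the length and GC trend was removed (0.27, adjusted p = 0.0711). OAT, ornithine aminotransferase, had 10.6 ± 0.855 and 11.7 ± 2.09 FPKM in KYSE150 (log2 change 0.12, adjusted p = 0.434) and rose by 0.41 in KYSE410 (adjusted p = 0.0017), which a common sum ended (0.17, adjusted p = 0.0709). Of 7 proline and ornithine genes, ALDH18A1 and PYCR1 included, 6 were tested in KYSE150 with 2 lower and 1 higher, and 5 in KYSE410 with 3 lower and 2 higher. These counts are near the shares of all genes tested, 38.8% lower and 23.5% higher in KYSE150, and 51.9% and 31.2% in KYSE410. The list medians were 0.03 and -0.25, the former 0.18 and the latter -0.0004 by median of ratios.

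GLUL (chr1:182381704-182392206, minus strand), glutamine synthetase, was the member that rose. It had 7.44, 7.04 and 7.01 FPKM in KYSE150 normoxia, against 9.17, 8.89 and 9.59 in hypoxia, and 4.85, 5.11 and 5.23 against 6.78, 6.59 and 5.95 in KYSE410. Hypoxic libraries were above normoxic ones in both lines, with log2 changes of 0.32 ± 0.07 (limma, adjusted p = 0.0058) and 0.29 ± 0.06 (adjusted p = 0.0020). Scaled to a common sum, the KYSE410 change was 0.09 (adjusted p = 0.227). GLUD1, glutamate dehydrogenase, did not pass in either line (log2 changes -0.18 and 0.06, adjusted p = 0.0595 and 0.0998), and in KYSE410 its value was -0.18 under a common sum (adjusted p = 8.984e-04) and 0.31 after median-of-ratios scaling (adjusted p = 3.729e-05). Without normoxia replicate 2 its KYSE150 change was -0.19 and passed (adjusted p = 0.0139).

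Glutamine is also the nitrogen donor for amidotransferases. GFPT1, the entry enzyme of hexosamine synthesis, fell from 67.6 ± 9.76 to 14.2 ± 0.575 FPKM in KYSE150, and in KYSE410 from 26.5 ± 0.685 to 12.4 ± 0.454, log2 changes of -2.17 and -1.04 (limma, adjusted p = 3.859e-06 and 9.355e-08). Its paralog GFPT2 fell in KYSE410, from 7.28 ± 0.701 to 3.30 ± 0.201 FPKM, a log2 change of -0.94 ± 0.08 (adjusted p = 4.799e-06), and had 17.2 ± 0.496 and 15.9 ± 0.320 FPKM in KYSE150 (-0.10, adjusted p = 0.203). CTPS1, CTP synthase, changed by -1.76 and -1.78 (adjusted p = 1.090e-06 and 5.701e-07). PPAT, the committing enzyme of purine synthesis, changed by -1.19 in KYSE410 (adjusted p = 4.545e-08) and by -0.30 in KYSE150 (adjusted p = 0.0169). The KYSE150 call for PPAT was lost under all 3 other scalings (adjusted p = 0.0612 to 0.152) and when normoxia replicate 1 or 3, or hypoxia replicate 2, was left out (adjusted p = 0.0595 to 0.0659). In the list of 13 glutamine and glutamate genes, GLUL included, 6 of 11 tested were lower and 2 higher in KYSE150, and 7 of 12 lower and 2 higher in KYSE410, with medians of -0.25 and -0.67. All genes tested were lower in 38.8% and higher in 23.5% of cases in KYSE150, and in 51.9% and 31.2% in KYSE410. The number of listed genes lower in KYSE410 is thus near the background. By median of ratios 3 were lower and 2 higher in KYSE150 (median -0.10), and 7 lower and 5 higher in KYSE410 (median -0.49). A common sum gave 10 lower and 1 higher in KYSE410. The counts of all genes moved too. By median of ratios 3815 of 12692 were lower and 3905 higher in KYSE150, and 4998 and 5010 of 12054 in KYSE410. Under a common sum 7503 were lower and 2746 higher in KYSE410.

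GPT2 (chr16:46884378-46931297, plus strand) is the mitochondrial alanine aminotransferase, which links glutamate and pyruvate to alanine. It had 17.7, 19.3 and 19.2 FPKM in KYSE150 normoxia, against 5.33, 6.16 and 6.13 in hypoxia. The KYSE410 values were 47.6, 48.3 and 45.3 FPKM in normoxia, against 5.67, 5.47 and 6.35 in hypoxia. From a higher normoxic level in KYSE410, the hypoxic libraries of the lines overlapped. The mean fell 3.19-fold in KYSE150, a log2 change of -1.52 ± 0.08 (limma, adjusted p = 5.197e-06), and 8.07-fold in KYSE410, a change of -2.82 ± 0.06 (adjusted p = 4.162e-09). By size of fall GPT2 took place 252 of 12692 in KYSE150 and place 27 of 12054 in KYSE410. GPT, the cytosolic paralog, fell by 0.63 in KYSE150 from 2.16 ± 0.186 to 1.05 ± 0.265 FPKM (adjusted p = 0.0023) and was at 0.0962 ± 0.0722 and 0.0998 ± 0.0379 FPKM in KYSE410, where it was not tested.

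BCAT1 (chr12:24810022-24949459, minus strand) encodes the cytosolic branched-chain aminotransferase. In KYSE150 it was listed at 0 in all 3 normoxic libraries and at 0.00723, 0 and 0 FPKM in hypoxia. In KYSE410 it had 0.0105, 0.0169 and 0.0321 FPKM in normoxia, against 0.0250, 0.0224 and 0.0293 in hypoxia. The groups overlapped in both lines and no comparison of oxygen levels was possible at this level (two-sided exact permutation test, p = 1.00 and 0.500, smallest possible 0.10). BCAT2, the mitochondrial form, carried nearly all of the aminotransferase mRNA, with 15.5 ± 2.11 and 12.8 ± 0.992 FPKM in KYSE150 and 30.01 ± 1.18 and 29.3 ± 2.15 in KYSE410. BCAT2 did not pass in either line (log2 changes -0.25 and -0.04, adjusted p = 0.0793 and 0.563), and its KYSE410 value took either sign under other scalings (0.21 with adjusted p = 0.0106 by median of ratios, -0.27 with adjusted p = 0.0034 by common sum). In KYSE150 it passed without normoxia replicate 1 (-0.36, adjusted p = 0.0175), and with the length and GC trend removed it passed in both lines (-0.34 and -0.19, adjusted p = 0.0267 and 0.0130). Downstream, BCKDHA, a subunit of the branched-chain ketoacid dehydrogenase, rose by 1.22 and 0.75 (limma, adjusted p = 8.392e-06 and 4.107e-07). DLD, the lipoamide subunit that this complex shares with pyruvate dehydrogenase, fell by 0.69 and 0.29, the latter call lost after median-of-ratios scaling (-0.05, adjusted p = 0.276). Of 15 alanine and branched-chain genes, GPT2 included, 3 of 10 tested were lower and 2 higher in KYSE150, and 4 of 9 lower and 2 higher in KYSE410, with medians of -0.02 and -0.09. Of all genes tested, 38.8% were lower and 23.5% higher in KYSE150, and 51.9% and 31.2% in KYSE410. By median of ratios the balance turned, with 3 lower and 4 higher in KYSE150 (median 0.12), and 1 lower and 5 higher in KYSE410 (median 0.15). The balance of all genes moved too, to 3815 lower and 3905 higher in KYSE150, and 4998 and 5010 in KYSE410.

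ASS1 (chr9:130444929-130501274, plus strand), argininosuccinate synthase, joins citrulline and aspartate on the way to arginine. In KYSE150 it was the most abundant member, with 1963, 2311 and 1878 FPKM in normoxia, against 1704, 1677 and 1684 in hypoxia, and its normoxic mean took place 11 among 30703 genes. In KYSE410 it had 107, 112 and 102 FPKM in normoxia, against 99.8, 102 and 104 in hypoxia, place 449 of 30106 in normoxia. The groups lay apart in KYSE150 and overlapped in KYSE410, and the log2 changes of -0.27 ± 0.12 and -0.07 ± 0.04 did not pass (limma, adjusted p = 0.0730 and 0.169). Without normoxia replicate 2, the highest library, the KYSE150 change was smaller, -0.19, and passed (adjusted p = 4.476e-04). It also passed under a common sum (-0.26, adjusted p = 0.0051), after quantile normalization (-0.37, adjusted p = 0.0016), with no mean trend (adjusted p = 0.0366) and with the length and GC trend removed (-0.31, adjusted p = 0.0480), but not by median of ratios (-0.12, adjusted p = 0.423). Without normoxia replicate 3, the KYSE410 change was -0.10 (adjusted p = 0.0469). Scaling also decided the KYSE410 value, which was -0.31 under a common sum (adjusted p = 9.660e-05), -0.23 after quantile normalization (adjusted p = 0.0022) and 0.18 by median of ratios (adjusted p = 0.0015). Annotated pseudogenes of ASS1 number 14, of which 9 and 6 were listed, none with a mean above 0.862 FPKM, and how the authors' counting shared reads among them is not given in the sources used here.

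Next to ASS1 in the pathway, ASL, argininosuccinate lyase, had 6.58 ± 1.12 and 5.50 ± 0.358 FPKM in KYSE150 (log2 change -0.21, adjusted p = 0.146) and fell by 0.58 in KYSE410, from 24.0 ± 0.429 to 15.8 ± 1.11 FPKM (limma, adjusted p = 1.051e-05). ARG2, the mitochondrial arginase, fell by 2.92 and 1.39 (adjusted p = 8.906e-07 and 8.644e-08). CPS1, carbamoyl phosphate synthetase of the urea cycle, was high in KYSE150, rising from 203 ± 35.2 to 281 ± 1.51 FPKM (0.49, adjusted p = 0.0120), and at 0.0950 ± 0.00795 and 0.229 ± 0.0305 FPKM in KYSE410, where it was not tested. The CPS1 call was lost after quantile normalization (adjusted p = 0.139) and with no filter on low values (adjusted p = 0.0508). Of 12 arginine and urea cycle genes, ASS1 included, 5 were tested in KYSE150 with 1 lower and 1 higher, and 4 in KYSE410 with 2 lower and 0 higher, medians of -0.21 and -0.32. Over all genes tested, 38.8% were lower and 23.5% higher in KYSE150, and 51.9% and 31.2% in KYSE410.

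Of 17 carriers for glutamine, glutamate and neutral amino acids, 8 of 11 tested were lower and 1 higher in KYSE150 (median -1.20), and 7 of 10 lower and 2 higher in KYSE410 (median -1.19), where 38.8% and 51.9% of all genes were lower. Those that rose, named after their values were seen, were SLC1A1, a glutamate transporter, in KYSE150 (0.31, limma, adjusted p = 0.0145), and in KYSE410 SLC38A5, a glutamine transporter, from 21.7 ± 1.41 to 56.1 ± 0.165 FPKM (1.33, adjusted p = 4.529e-08), and SLC25A22, a mitochondrial glutamate carrier (0.49, adjusted p = 1.607e-05). SLC1A5, the main glutamine importer of many cells, went from 136 ± 6.93 to 24.3 ± 0.999 FPKM in KYSE150, and in KYSE410 from 125 ± 3.69 to 32.7 ± 1.39, log2 changes of -2.43 and -1.90 (limma, adjusted p = 4.911e-07 and 5.254e-09). SLC3A2, the heavy chain shared by several exchangers, changed by -2.52 and -0.55, SLC1A4 by -2.12 and -2.10, and SLC38A2 by -1.37 and -1.99 (adjusted p at most 5.337e-05). Among 18 genes of the eIF2 kinases and the ATF4 axis, 13 of 18 tested were lower and 1 higher in KYSE150 (median -1.46). In KYSE410, 13 of 17 were lower and 2 higher (median -0.77). For these counts and those of the carriers, the shares of all genes were 38.8% lower and 23.5% higher in KYSE150. In KYSE410 they were 51.9% and 31.2%. By median of ratios the counts of this list were 13 and 2 in KYSE150 and 11 and 4 in KYSE410. That scaling made 3815 of all 12692 genes lower and 3905 higher in KYSE150, and 4998 and 5010 of 12054 in KYSE410. Called higher, and named after their values were seen, were EIF2AK3 in KYSE150 (0.31, limma, adjusted p = 0.0389) and PPP1R15A and EIF2AK2 in KYSE410. PPP1R15A went from 88.3 ± 3.72 to 229 ± 1.93 FPKM (1.36, adjusted p = 1.133e-08), and EIF2AK2 changed by 0.11 (adjusted p = 0.0430). ATF5 fell by 1.60 in KYSE150 and did not pass in KYSE410 (0.16, adjusted p = 0.0971). CHAC1, a glutathione-degrading enzyme, went from 19.3 ± 2.93 to 0.0474 ± 0.0449 FPKM in KYSE150, and in KYSE410 from 15.002 ± 0.748 to 0.0394 ± 0.0117. TRIB3, a pseudokinase that restrains ATF4, changed by -2.39 and -3.56, CEBPG, a C/EBP partner of ATF4, by -1.94 and -3.35, and SESN2 by -3.29 and -3.34 (adjusted p at most 9.912e-07). CHAC1, TRIB3, CEBPG and SESN2, and the carriers SLC1A5, SLC3A2, SLC1A4 and SLC38A2, were taken for the size of their change in these data. Their low p-values are therefore partly a result of that choice. ATF4 itself, also chosen after its values were seen, fell by 1.66 ± 0.18 and 0.77 ± 0.12 (adjusted p = 1.378e-04 and 3.831e-04). These are mRNA levels, and ATF4 is controlled mainly in its translation, which was not measured.

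**Figure D3:**
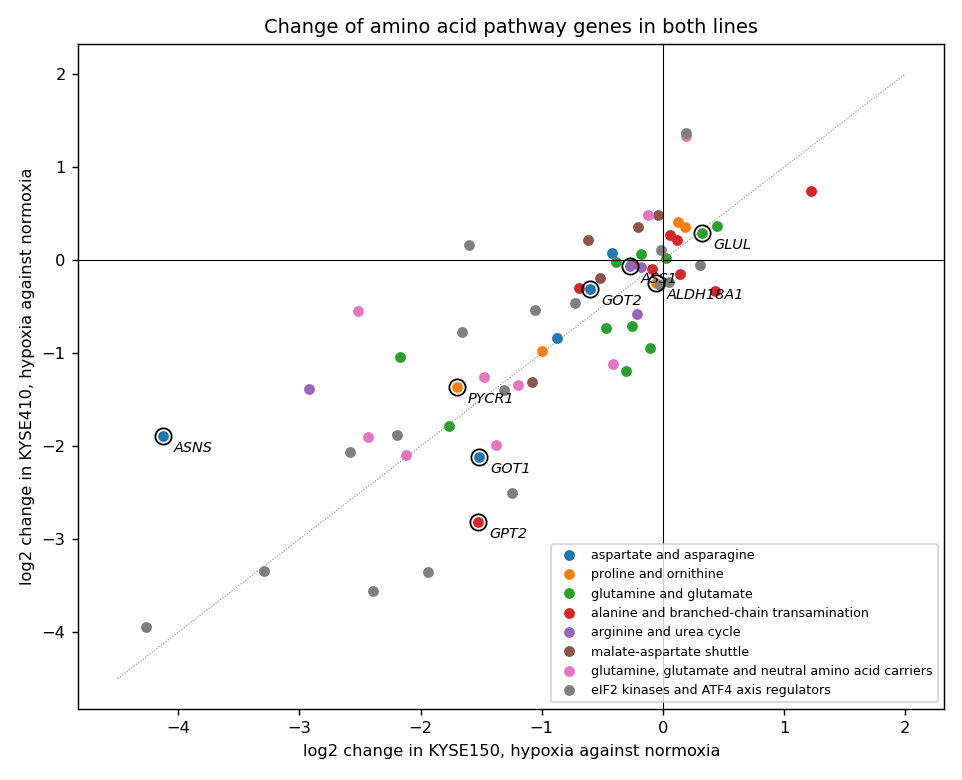
Log2 change in KYSE150 (x axis) against KYSE410 (y axis) for 65 pathway genes tested in both lines, coloured by list, with the 8 tested enzyme genes ringed and named. A gene that 2 lists hold is shown in the colour of the earlier list, and the dotted line marks equal change. ASNS lies above that line, with -4.13 and -1.89, and GPT2 below it, with -1.52 and -2.82.

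Ratios between genes within a library are not altered by scaling a library by a constant. All 14 such comparisons are 3 libraries against 3, where the smallest p of a two-sided exact permutation test is 0.10, so they are given by their values. The ratio of GOT1 to GOT2 was 0.764 ± 0.0435 in KYSE150 normoxia and 0.393 ± 0.0206 in hypoxia, and 0.700 ± 0.0279 against 0.189 ± 0.00720 in KYSE410. PYCR1 stood at 2.60 ± 0.493 times ALDH18A1 in KYSE150 normoxia and 0.808 ± 0.0338 times in hypoxia, and at 1.19 ± 0.0826 against 0.531 ± 0.0287 in KYSE410. In both pairs hypoxia lay wholly below normoxia in both lines, so the balance moved toward the mitochondrial aminotransferase and toward the entry enzyme of proline synthesis. ASNS stood at 34.6 ± 2.83 and 1.43 ± 0.0255 times GLUL in KYSE150, and at 41.3 ± 1.17 and 8.73 ± 1.46 times in KYSE410, again with no overlap. These 3 ratios moved in the same direction in both lines.

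Other ratios did not move alike. ASNS was 4.89 ± 0.133 times GOT1 in KYSE150 normoxia and 0.775 ± 0.0488 times in hypoxia, while in KYSE410 it was 3.32 ± 0.0353 times in normoxia and 4.07 ± 0.460 in hypoxia. The groups lay apart in opposite directions, lower in hypoxia in KYSE150 and higher in KYSE410. GPT2 over GOT1 overlapped in KYSE150, at 0.370 ± 0.0204 and 0.344 ± 0.0147, and went down in KYSE410 from 0.748 ± 0.0408 to 0.425 ± 0.0383. ASS1 was 314 ± 18.0 and 308 ± 19.5 times ASL in KYSE150, with overlap, and 4.46 ± 0.271 and 6.50 ± 0.564 times in KYSE410. PYCR1 over PYCR3 was 28.97 ± 0.0774 and 21.9 ± 0.577 in KYSE150 and overlapped in KYSE410, at 23.0 ± 2.61 and 30.6 ± 6.84.

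**Figure D4:**
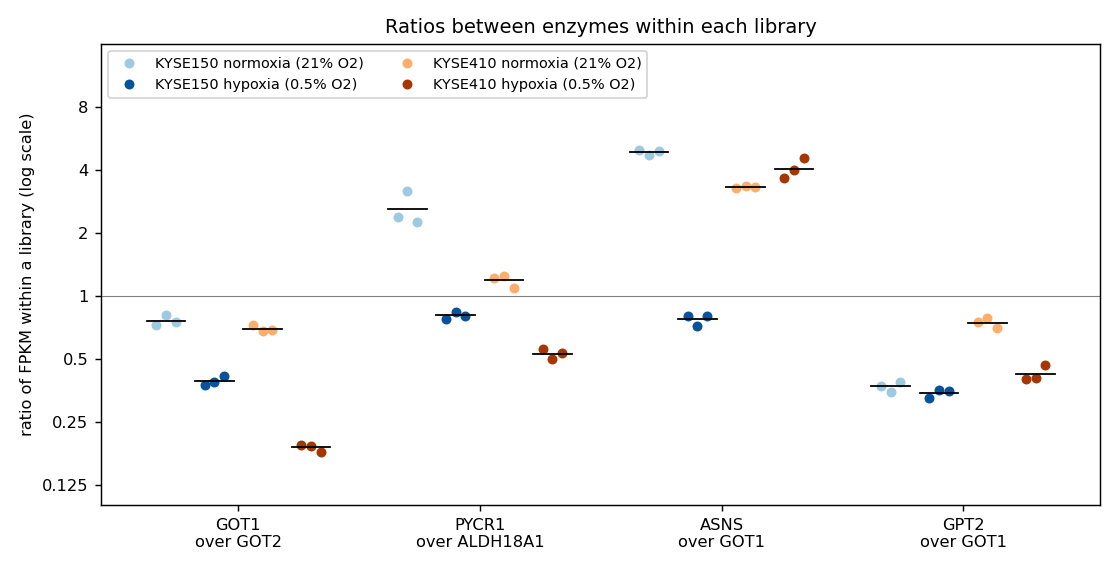
Ratio of FPKM between pairs of genes in each library, on a log axis, with the mean of each group as a line. GOT1 over GOT2 and PYCR1 over ALDH18A1 are lower in hypoxia in both lines, and ASNS over GOT1 moves down in KYSE150 and up in KYSE410.

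The change itself was compared between lines by the interaction of line and oxygen over all 12 libraries and 12653 genes, given as KYSE410 minus KYSE150. Of the 8 members tested, 3 had a higher value in KYSE410 and 3 a lower one, against 27.3% and 36% of all genes. ASNS fell less in KYSE410, by a difference of 2.24 ± 0.10 (limma, adjusted p = 1.277e-08), whereas GPT2 fell more, with a difference of -1.29 ± 0.10 (adjusted p = 6.288e-07), and so did GOT1, with -0.60 ± 0.09 (adjusted p = 8.006e-05). Those 3 differences passed under every alternative run. GOT2 differed by 0.29 ± 0.07 (adjusted p = 0.0037), PYCR1 by 0.34 ± 0.12 (adjusted p = 0.0297) and ALDH18A1 by -0.19 ± 0.07 (adjusted p = 0.0327), and each of these calls was lost under some alternatives. That of GOT2 was lost under a common sum, after quantile normalization and with the length and GC trend removed (adjusted p = 0.631, 0.312 and 0.0971), but on leaving out no library. For PYCR1 the call was lost under a common sum (adjusted p = 0.380), with the length and GC trend removed (0.151) or no filter (0.0573), and without KYSE150 hypoxia replicate 1, KYSE410 normoxia replicate 1 or 3, or KYSE410 hypoxia replicate 1 or 3 (adjusted p up to 0.0728). For ALDH18A1 it was lost by median of ratios (adjusted p = 0.218), with no mean trend (0.0510) or with the replicate block (0.0506), and without KYSE150 hypoxia replicate 1 or 3, KYSE410 normoxia replicate 2 or 3, or KYSE410 hypoxia replicate 1 or 2 (adjusted p up to 0.0811). GLUL did not pass (-0.03 ± 0.09, adjusted p = 0.777), nor did ASS1 (0.21 ± 0.11, adjusted p = 0.105), which passed by median of ratios (0.30, adjusted p = 0.0253) and without KYSE150 normoxia replicate 3 (adjusted p = 0.0341) and was -0.05 under a common sum (adjusted p = 0.546). The GLUL difference took either sign (-0.25 to 0.17 over the alternatives).

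Across the 4 groups the order of mean FPKM differed by gene, with the caution that the tables of the 2 lines were deposited separately and levels between them were not tested. ASNS ran from KYSE150 normoxia (247) through KYSE410 normoxia (209) and KYSE410 hypoxia (55.7) to KYSE150 hypoxia (13.2), and no neighbours overlapped. GPT2 ran from KYSE410 normoxia (47.1) through KYSE150 normoxia (18.7) to the hypoxic groups (5.87 and 5.83), which overlapped. For PYCR1 the order was KYSE150 normoxia (140), KYSE410 normoxia (51.5), KYSE150 hypoxia (42.2) and KYSE410 hypoxia (19.4), so KYSE150 in hypoxia stood near KYSE410 in normoxia. ASS1 and ALDH18A1 were ordered by line before oxygen, ASS1 with a 15.8-fold step from KYSE150 hypoxia (1688) to KYSE410 normoxia (107). GOT1 was ordered by oxygen before line, the normoxic means of 63.0 and 50.7 FPKM standing above the hypoxic 17.0 and 13.7. GOT2 was highest in both KYSE410 groups (90.1 and 72.6) and lowest in KYSE150 hypoxia (43.4), and GLUL was highest in both KYSE150 groups (9.22 and 7.16).

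Genes with the closest pattern to a member were taken by Pearson r of log2(FPKM + 1) over the 12 libraries, among the 8181 genes averaging 5 FPKM or more. These values describe 4 groups more than 12 independent points. Closest to ASNS were ZMPSTE24 (r = 0.996), LRRC59 (0.994) and UXS1 (0.994), and closest to PYCR1 were GLRX2 (0.995), PTPMT1 (0.994) and UCHL5 (0.994). For GLUL they were TMEM214 (0.990), CCNG1 (0.988) and HMGB1P5 (0.983), the last an annotated pseudogene. The pattern is shared in shape, not in size: ZMPSTE24, a zinc metalloprotease, went from 27.6 to 7.32 FPKM in KYSE150, and in KYSE410 from 25.9 to 13.7. Between members, r was highest for GPT2 with GOT1 (0.954) and ALDH18A1 with ASS1 (0.909) and lowest for GOT2 with GLUL (-0.969).

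Scaling moved the median log2 change of all genes, which was -0.21 in KYSE410 as deposited, to -0.42 under a common sum and to 0.00 by median of ratios. Relative to the median of all genes, ASNS stood at -4.00 in KYSE150 (range -4.12 to -3.98 over 4 scalings) and -1.68 in KYSE410 (-2.16 to -1.65). GPT2 stood at -1.39 (-1.40 to -1.38) and -2.61 (-2.65 to -2.59), GOT1 at -1.38 (-1.39 to -1.36) and -1.91 (-2.02 to -1.88), and PYCR1 at -1.57 (-1.58 to -1.55) and -1.16 (-1.29 to -1.13). GLUL stayed above the median, at 0.46 (0.46 to 0.46) and 0.50 (0.50 to 0.63). ALDH18A1 stayed near it, at 0.08 (0.08 to 0.10) and -0.03 (-0.21 to -0.00250), and ASS1 in KYSE410 took either sign (-0.23 to 0.18).

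**Figure D5:**
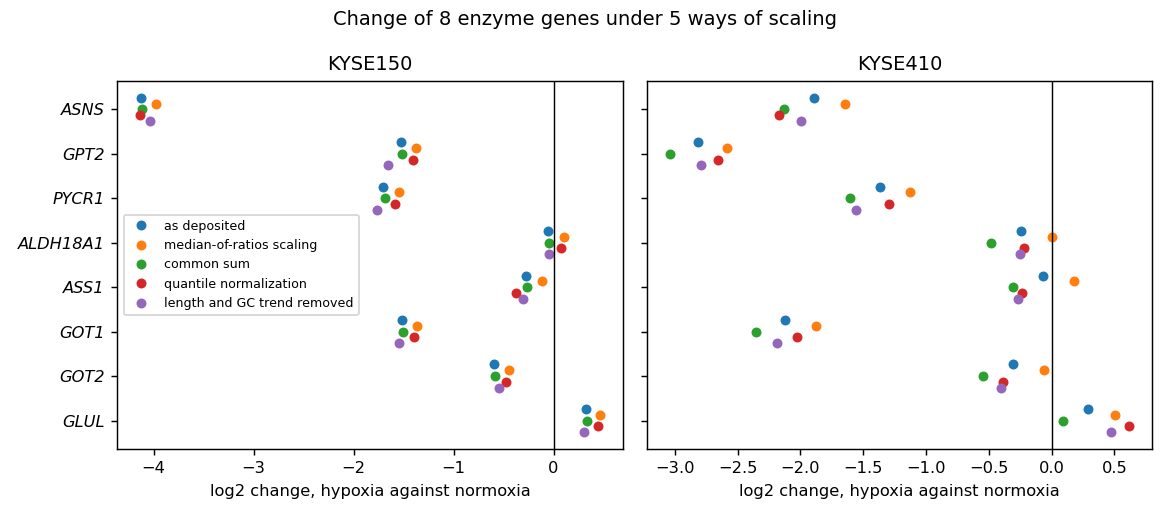
Log2 change of the 8 tested genes as deposited and after 4 corrections, in KYSE150 (left) and KYSE410 (right), each with its own x axis. ASNS, GPT2, PYCR1 and GOT1 lie below -1 throughout, whereas ASS1 in KYSE410 runs from -0.31 to 0.18.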

How the data were processed

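Messenger RNA was captured on VAHTS beads from TRIzol extracts of KYSE150 and KYSE410, per the labels' protocols. The submitters' processing notes name bcl2fastq 2.20, fastp 0.22.0, HISAT2 2.2.1 and the build hg38, without their roles. Which quantifier, annotation and strand setting were used is not given in the sources used here. Per line the authors deposited 1 table of values taken here as FPKM: multiplied by GENCODE 29 transcript length they summed to 0.919 to 1.02 times the total this unit implies. No steps of whole reads were found, since the commonest ratio between libraries held 0.809% to 1.22% of low genes, so depth is unknown.

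The 9 genes and the 8 lists were chosen with earlier results of these data known; some genes were left out of the lists and are not reported here. Genes averaging 1 FPKM or more were fitted on log2(FPKM + 1) with limma 3.58.1 (R 4.3.3), using its moderated variances with a trend on the mean. A call is a Benjamini-Hochberg adjusted p below 0.05 over all genes tested. On this scale changes of low genes are understated. Each line was fitted on its own (3 against 3 libraries), and the interaction over all 12. Lists are described by counts and medians. The rule for named genes took the 9 members, their paralogs and partners in the lists, up to 4 called genes per list with the largest change in either line, and the 3 genes most like ASNS, PYCR1 and GLUL. Genes taken for the largest change were chosen on the same data that test them, so their p-values are not independent of the choice. Positions are GENCODE 29 on GRCh38 and promoter sequences RefSeq on GRCh38.p14. Alternatives were 3 scalings (median of ratios, common sum, quantile), a pseudocount of 0.1, no filter or a mean of at least 5 FPKM, no mean trend, an adjusted p under 0.01, the replicate number as a block, removal of a transcript length and GC trend (known for 96.0% to 96.2% of genes tested) and leaving out each library. The fits were tested on simulated data. Of log2 changes of 0.5 they recovered 41% in KYSE150, 77% in KYSE410 and 47% for the difference between lines. For changes of 1 the shares were 86%, 98% and 88%. False calls were 2.3%, 5.4% and 4.9% of all calls. A gene that did not pass may thus still have changed by 0.5, more so in KYSE150 and in the difference than in KYSE410. Python 3.11.15, numpy 2.4.6, pandas 2.3.3, scipy 1.17.1 and matplotlib 3.10.9 were used.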

Additional observations from a re-analysis of the deposited data

Results flagged for a closer look

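The response to hypoxia differed between the lines for 6 of the 8 tested enzyme genes, by the interaction of line and oxygen (limma, adjusted p under 0.05). Of all genes tested, 63.3% also differed, so this number is near the background. The response differed too for 15 of the other genes taken by the rule for named genes and tested in both lines. Most of those were chosen for the size of their change in these same data, so the 15 cannot be set against that share. Genes named above outside that rule differed as well: ATF4, ATF5, PPP1R15A, EIF2AK3, SLC38A5, SLC25A22, MDH1 and SLC25A12. So did PRODH and SLC1A1, which were not tested in KYSE410 on its own. As KYSE410 minus KYSE150 on the log2 scale, the difference was 2.24 for ASNS, -1.29 for GPT2, -0.60 for GOT1, 0.34 for PYCR1, 0.29 for GOT2 and -0.19 for ALDH18A1. ASNS thus fell more in KYSE150, and GPT2 and GOT1 in KYSE410.

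Among glutamine and glutamate genes the difference was -0.84 for GFPT2, -0.89 for PPAT, 1.13 for GFPT1 and 0.24 for GLUD1. PPAT and GFPT1 fell in both lines, PPAT further in KYSE410 and GFPT1 in KYSE150. In the arginine list it was 1.53 for ARG2 and -0.37 for ASL, and among branched-chain genes -0.48 for BCKDHA, which rose more in KYSE150, and 0.39 for DLD. MDH2 of the malate-aspartate shuttle differed by 0.83. Of the carriers, SLC3A2 differed by 1.97, SLC1A5 by 0.53 and SLC38A2 by -0.62. Of the ATF4 axis, TRIB3 differed by -1.17, CEBPG by -1.41 and CHAC1 by 0.32. Of the 18 genes of this list, 6 were higher and 5 lower in the difference, against 27.3% and 36% of all genes. Among the higher, and named after their values were seen, were NUPR1 (2.89), ATF5 (1.77), PPP1R15A (1.17) and ATF4 (0.89). NUPR1 was not tested in KYSE410 on its own. The CHAC1 call (adjusted p = 0.0460) was lost on leaving out any 1 of 10 libraries, all except KYSE150 normoxia replicate 3 and KYSE150 hypoxia replicate 1 (adjusted p up to 0.103). It was also lost under a common sum, with a pseudocount of 0.1, no filter, the replicate block or the length and GC trend removed (adjusted p up to 0.343), and the hypoxic means of CHAC1 were at most 0.0474 FPKM. That of ASL (adjusted p = 0.0279) was lost without KYSE150 normoxia replicate 1 or 3, KYSE150 hypoxia replicate 3, KYSE410 normoxia replicate 1 or KYSE410 hypoxia replicate 2 or 3 (adjusted p up to 0.0683), and by median of ratios, after quantile normalization and with no filter (adjusted p = 0.0988, 0.0739 and 0.0522). The DLD call was lost under a common sum (adjusted p = 0.127), and that of GLUD1 after quantile normalization and with the length and GC trend removed (adjusted p = 0.760 and 0.0863). In KYSE410 oxygen and library set cannot be told apart, and their parts in these differences were not tested.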

How the results depend on the processing

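Of 432 values of the 8 tested members under the alternatives, 395 stayed on the same side of the threshold, 25 lost the call, 11 gained it and 1 reversed. Of the 395, 388 kept their sign and 7 turned it without a call before or after: ALDH18A1 in KYSE150 (up to 0.10) and the differences between lines of GLUL (up to 0.17) and ASS1 (-0.05). Of 216 counts of calls over all genes or members, 209 stayed within 1.5 times the count reported. The fall of ASNS, GPT2, PYCR1 and GOT1 in both lines and of GOT2 in KYSE150, and the rise of GLUL in KYSE150, passed under every alternative run. Median-of-ratios scaling reversed ASS1 in KYSE410 (0.18) and BCAT2 in KYSE410 (0.21). A common sum reversed GLUD1 (-0.18) and MDH2 (-0.030) in KYSE410 and the differences between lines of GLUD1 (-0.013) and ASNSD1 (-0.21), and quantile normalization reversed MDH2 in KYSE410 (-0.15). The number of members called higher in KYSE410 was 1 as deposited, 2 by median of ratios and 0 under a common sum, where 3763, 5010 and 2746 of 12054 genes were higher. The number whose difference between lines was called higher was 3, and 1 under a common sum or with the length and GC trend removed. Over all 12653 genes it was 3453 as deposited and 2353 under a common sum. With a mean of at least 5 FPKM, 3253 genes were lower in KYSE150, 4007 in KYSE410 and 2981 in the difference between lines, because fewer genes were tested (8085, 7771 and 8181). The cause of the other shifts was not tested.

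Scaling moved the balance of calls. Higher calls made up 37.7% of all calls in KYSE150 and 37.6% in KYSE410 as deposited, 50.6% and 50.1% by median of ratios, 49.2% and 49.3% after quantile normalization, and 38.5% and 26.8% under a common sum. For the difference between lines the shares were 43.1% as deposited and 28.1% under a common sum. Leaving out single libraries gave 5 to 6 members lower in KYSE150, 6 to 7 in KYSE410, and 2 to 4 higher and 2 to 3 lower in the difference. With all libraries, 38.8% of all genes were lower in KYSE150 and 51.9% in KYSE410. In the difference 27.3% were higher and 36% lower.

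Libraries with the same replicate number did not deviate together (r of -0.07 to 0.08 across genes in 6 pairs), so the numbers are not taken to pair the samples. With the replicate block, 5 members were lower in KYSE150 and 6 in KYSE410, as without it, and among members the difference of ALDH18A1 alone lost its call (adjusted p = 0.0506).

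Depth is unknown, so counting error cannot be separated from the spread between 3 libraries, and BCAT1, at or below 0.0321 FPKM, cannot be compared. Values are mRNA levels of bulk cultures; fewer cells of a kind and less RNA per cell cannot be told apart.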
